A study of Mus musculus with 7 samples.

Results

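The 10 genes described here are Pmel, Tyr, Tyrp1, Dct, Mlana, Mitf, Slc45a2, Oca2, Kit and Ednrb, which melanocytes use to make pigment or to develop and survive. They were chosen by symbol, and all 10 were found among the 22552 gene symbols of the expression table. RNA from flow-sorted skin cells of mice at postnatal day 50 was sequenced in 7 libraries. The strain label CD1/C3H is shared by all of them. CD1 is an albino stock and C3H a pigmented agouti strain, and the labels do not say which coat colour the animals of each library had. Ear dermis and ear epidermis came from Wt/Koa mice, which carry 1 copy of the dominant Koa allele (an inversion on chromosome 15 that gives hairy ears), and from Wt/Wt mice, here called WT. The dorsal libraries, from dermis and epidermis, and the tail library were WT. No transgene or treatment is named. The tail library has no cell type label, so its layer is taken from its title. With 1 library in each group there is no replicate and no test, and the values below describe these 7 libraries.

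Melanocytes arise from the neural crest and place pigment in melanosomes, organelles that mature in steps. PMEL forms the fibrils on which pigment is laid down, and MLANA assists its processing. Tyrosinase, the product of Tyr, carries out the first and limiting reaction of melanin synthesis. TYRP1 and DCT (dopachrome tautomerase) act later in the pathway, and SLC45A2 and OCA2 are membrane proteins that help to set conditions inside the melanosome. MITF is the transcription factor that drives these genes, and it is also used in mast cells and other cells. KIT and EDNRB are receptors, for KIT ligand and for endothelins, on which melanocyte precursors depend. In mouse trunk skin most melanocytes sit in hair follicles, while ear and tail skin also hold them outside follicles.

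The data are given in FPKM, fragments scaled by transcript length and by the total mapped, a level per length that allows genes to be compared with each other. The depth recovered for the 6 ear and dorsal libraries lay between 31.6 and 40.4 mega fragments, and that of the tail library is unknown. Positions are from RefSeq on GRCm38.p6. Pmel lies on chromosome 10 from 128695888 to 128720238, Tyr on chromosome 7 from 87424771 to 87493512, and Tyrp1 on chromosome 4 from 80834123 to 80851736. Dct lies on chromosome 14 from 118012790 to 118052246, and Ednrb on the same chromosome from 103814615 to 103844508. Mlana lies on chromosome 19 from 29697541 to 29708447, Mitf on chromosome 6 from 97807002 to 98021360, and Kit on chromosome 5 from 75574987 to 75656722. Oca2 lies on chromosome 7 from 56239593 to 56536518. Slc45a2, from 11000721 to 11029233, is the only 1 of the 10 on chromosome 15, the chromosome of the Koa inversion. The exons of Pmel share 34 bases with Cdk2 and 105 bases with Dgka, both on the opposite strand, out of 2292 exon bases. Whether the counting used strand is not given in the sources used here. The other 9 genes share no exon bases with another gene.

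The promoters of the 3 enzyme genes are shown because they share a site of MITF, the factor that links these genes. RefSeq promoter windows, cut here to the 250 bases before a transcript start, were found for 7 of the 10 genes. The longest run of letters common to the Tyr, Tyrp1 and Dct windows is GTCATGTGCT, 10 bases of the M-box, known as a site for MITF. Because the word was read from these 3 windows, its presence in all 3 is given by that choice and is not a result. It was searched on both strands, as AGCACATGAC on the other. It occurs in Tyr from 23 to 14 bases before the start, in Tyrp1 from 48 to 39 bases, and in Dct from 152 to 143 bases. The Tyrp1 window precedes a transcript start downstream of the gene's first base. It ends at 80834212 and the gene begins at 80834123, so the Tyrp1 match lies within the gene's span. Of 32851 windows over all genes, 51 (0.155%) hold it. Of the 7 genes with a window only these 3 hold it, and of 31 other melanosome genes with a window 0 do. The shorter core TCATGTG lies inside it and occurs in 3.25% of all windows, and CATGTG, inside the core, in 12.3%. The most downstream of the 3 Mitf windows holds TGACGTCA, the cAMP response element, from 153 to 146 bases before the start, as 1.55% of all windows do on either strand. A match is a description of the letters and not a bound site. The 250 bases before each start are shown 5′ to 3′ on the gene's strand, with the M-box, or in Mitf the cAMP response element, in capitals.
Tyr (chr7:87493513-87493762, minus strand): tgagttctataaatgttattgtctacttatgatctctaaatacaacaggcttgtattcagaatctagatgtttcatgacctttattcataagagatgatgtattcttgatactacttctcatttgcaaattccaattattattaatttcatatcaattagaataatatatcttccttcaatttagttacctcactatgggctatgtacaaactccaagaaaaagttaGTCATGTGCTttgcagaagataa
Tyrp1 (chr4:80833963-80834212, plus strand): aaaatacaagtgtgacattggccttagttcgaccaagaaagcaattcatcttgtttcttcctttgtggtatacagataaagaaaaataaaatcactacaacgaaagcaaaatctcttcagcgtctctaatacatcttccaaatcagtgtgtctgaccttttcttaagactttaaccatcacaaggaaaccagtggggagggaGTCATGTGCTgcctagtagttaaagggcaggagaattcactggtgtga
Dct (chr14:118052247-118052496, minus strand): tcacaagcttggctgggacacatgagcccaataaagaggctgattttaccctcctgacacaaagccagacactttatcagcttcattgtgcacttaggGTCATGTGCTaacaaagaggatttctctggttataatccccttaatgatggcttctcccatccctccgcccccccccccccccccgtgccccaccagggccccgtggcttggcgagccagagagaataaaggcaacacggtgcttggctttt
Mitf (chr6:97991533-97991782, plus strand): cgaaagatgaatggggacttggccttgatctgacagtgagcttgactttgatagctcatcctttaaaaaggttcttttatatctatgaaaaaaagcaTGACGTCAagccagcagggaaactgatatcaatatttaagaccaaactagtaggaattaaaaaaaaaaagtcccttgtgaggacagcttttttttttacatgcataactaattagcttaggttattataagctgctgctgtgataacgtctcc

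Most of the 10 genes were detected at far higher levels in dermal than in epidermal libraries, and Tyr and Mitf were the 2 that stood closest in both layers. Ranges below are over the 3 ear and dorsal dermal libraries and the 3 epidermal libraries, with the tail library given apart. Among the enzymes, Dct stood at 50.7 FPKM in WT ear, 84.4 in Koa ear and 146 in dorsal dermis, against 1.12, 1.74 and 2.35 FPKM in the matching epidermis. Tyrp1 stood at 18.5, 24.4 and 22.7 FPKM in the same dermal libraries and at 0.226, 0.146 and 0.213 FPKM in epidermis. For both genes every dermal library lay above every epidermal one, and the share of all genes with such a split was not counted. Tyr stood lower in dermis, at 5.77, 5.97 and 8.69 FPKM, and higher in epidermis than Tyrp1, at 1.44, 2.07 and 4.52 FPKM. Tyr had the same split, but its dorsal epidermal level was close to the 2 ear dermal levels.

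The melanosome matrix genes followed the layer in the same way. Pmel stood at 32.6 FPKM in WT ear, 35.8 in Koa ear and 43 in dorsal dermis, and between 1.37 and 1.51 FPKM in epidermis. Mlana stood at 13, 17.7 and 59 FPKM in the 3 dermal libraries and at 0.482 and 0.86 FPKM in WT ear and dorsal epidermis. It is listed at 0 in Koa ear epidermis. Dorsal dermis thus stood well above both ears for Mlana, and only slightly above them for Pmel. The 2 transport genes were the lowest of the 10 in these dermal libraries. Slc45a2 stood at 1.17, 2.74 and 2.09 FPKM in WT ear, Koa ear and dorsal dermis, with 2 fragments in WT ear epidermis, 1 in Koa ear epidermis and a listed 0 in dorsal epidermis. Oca2 stood at 1.03, 0.79 and 0.413 FPKM in the same dermal libraries, and rested on 1 to 3 fragments in each epidermal library. The order of Slc45a2 and Oca2 across the epidermal libraries cannot be read at this depth.

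Mitf had the smallest gap between layers in both ears, and Tyr in dorsal skin. Mitf stood at 10.3, 14.7 and 17.6 FPKM in WT ear, Koa ear and dorsal dermis and at 6.77, 6.7 and 8.45 FPKM in the matching epidermis, where it was the highest of the 10. The receptor Kit stood at 12.6, 9.4 and 10.6 FPKM in these dermal libraries, and at 0.0798, 0.506 and 0.293 FPKM in epidermis. Ednrb stood at 7.97, 8.55 and 32.4 FPKM in dermis and at 0.0876, 0.3 and 0.533 FPKM in epidermis. For both receptors the epidermal levels lay under 1 FPKM in all 3 libraries. In sorted pools such as these, fewer melanocytes and less RNA per melanocyte cannot be told apart.

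**Figure D1:**
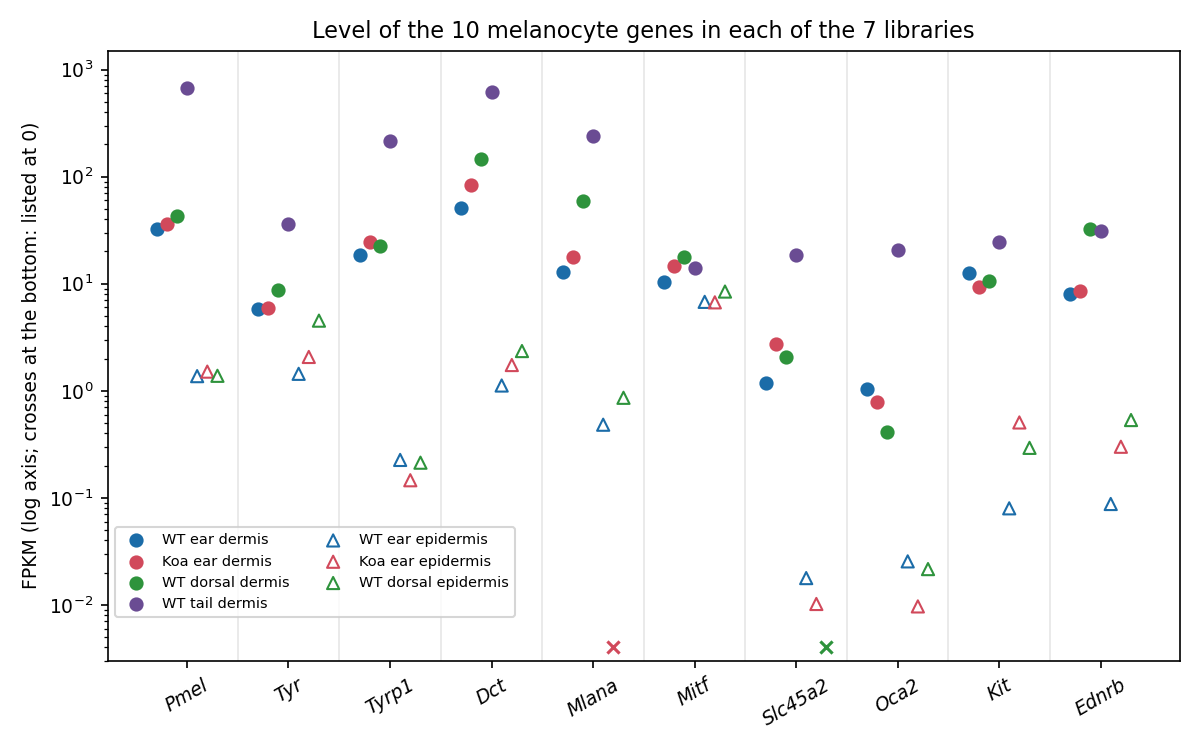
Level in FPKM (log axis) of each of the 10 genes in each of the 7 libraries. Filled circles are dermal and open triangles epidermal libraries, 1 point per library, and crosses at the bottom are values listed at 0. The tail library stands highest for 8 of the 10 genes, the exceptions being Mitf and Ednrb, which stood highest in dorsal dermis.

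Differences were taken on the log2(FPKM + 1) scale, and a gene was counted as higher or lower where it differed by at least 1 and reached 1 FPKM in 1 of the 2 libraries. This scale understates the change of low genes. Between WT ear dermis and epidermis, 8 of the 10 genes were higher in dermis and 0 lower, where 21.3% of all 13843 genes passing the filter were higher and 14.4% lower. The median difference was 3.14 over the 10 genes and -0.09 over all genes. The 2 that missed the size rule were Mitf, with a difference of 0.54, and Oca2, with 0.98. Between dorsal dermis and epidermis 7 of the 9 genes that passed the filter were higher and 0 lower, against 16.1% of all genes higher and 8.29% lower, and Mitf (0.98) and Tyr (0.81) missed the rule. Between Koa ear dermis and epidermis all 9 that passed were higher, against 20.4% of all genes higher and 12.8% lower. Oca2 did not pass the filter in these last 2 comparisons. The median ratio of all genes lay between -0.26 and -0.24 (log2) in these pairs. Rescaled to a median ratio of 1, Mitf (1.21) and Tyr (1.02) pass the rule in dorsal skin.

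As ratios of FPKM, with exact 95% intervals that cover counting error only, dermis over epidermis ran from 1.52 (1.41 to 1.64) for Mitf to 158 (98.5 to 281) for Kit in WT ear. Tyrp1 had a ratio of 81.7 (54.1 to 129) and Dct of 45.4 (36.8 to 56.5) there. The ratio of Tyr was 4.02 (3.56 to 4.55) in WT ear, 2.88 (2.58 to 3.22) in Koa ear and 1.92 (1.77 to 2.09) in dorsal skin. That of Pmel ranged from 23.7 to 31.2 over the same 3 pairs. Tyr and Dct, enzymes of 1 pathway, had separate intervals in all 3 pairs. Of the summed level of the 7 pigment genes (Pmel, Tyr, Tyrp1, Dct, Mlana, Slc45a2 and Oca2), Tyr made up between 3.09% and 4.7% in ear and dorsal dermis and between 30.7% and 48.4% in epidermis.

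**Figure D2:**
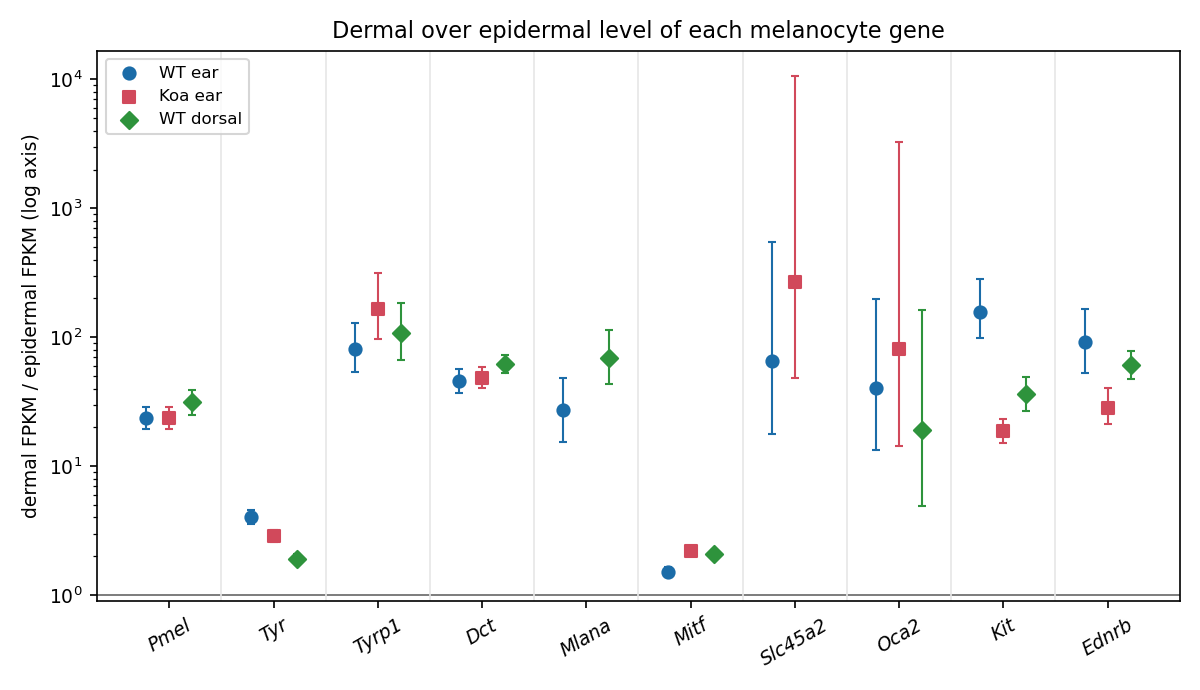
Ratio of dermal to epidermal FPKM (log axis) for each of the 10 genes in WT ear, Koa ear and WT dorsal skin, 1 point per pair of libraries. Bars are exact 95% intervals of counting error only, and no point is drawn where the epidermal value is listed at 0. Tyr and Mitf lie lowest in all 3 pairs, and Slc45a2 and Oca2 have wide intervals because few epidermal fragments lie behind them.

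Dermal libraries also held keratinocyte RNA, in unequal amounts. The median of 8 basal keratinocyte markers (Krt5, Krt14 and others) in dermis was 8% of its epidermal level in WT ear, 11.6% in Koa ear and 40.7% in dorsal skin. If that share of the epidermal level is subtracted from each dermal library, Tyr in dorsal dermis goes from 8.69 to 6.85 FPKM and Mitf from 17.6 to 14.2 FPKM. The subtraction takes at most 4.02% from Tyr and 5.28% from Mitf in the 2 ear libraries. Basal keratinocyte markers summed to between 780 and 6364 FPKM in ear and dorsal dermis and to 143 FPKM in tail dermis. For 7 suprabasal markers the median share was 6.09% in WT ear, 12.5% in Koa ear and 35.9% in dorsal skin. Red blood cell genes summed to between 111 and 540 FPKM in dermis and to at most 7.77 FPKM in epidermis. Fibroblast markers summed to between 6192 and 11305 FPKM in the 4 dermal libraries and to at most 126 FPKM in epidermis.

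Between Koa and WT ear dermis, ratios of the 10 genes lay between 0.745 and 2.35. By the size rule 0 of the 10 were higher and 0 lower, against 1.71% of all 13691 genes higher and 1.07% lower, a background so low that 0 of 10 says nothing particular of these genes. The values stood higher in Koa for 8 of the 10 genes, with a median difference of 0.26, against -0.00 over all genes. The share of all genes that stood higher by any amount was not counted. Slc45a2 was furthest apart, with 2.74 FPKM in Koa and 1.17 in WT, a ratio of 2.35 (1.88 to 2.94) and a difference of 0.79, which becomes 1.17 and passes the rule with a pseudocount of 0.1. Dct followed with a ratio of 1.66 (1.6 to 1.73), then Mitf with 1.43 (1.34 to 1.52) and Mlana with 1.36 (1.18 to 1.57). The ratio of Tyr was 1.03 (0.955 to 1.12) and that of Ednrb 1.07 (0.988 to 1.16), and both intervals include 1. Kit stood lower in Koa than in WT ear dermis, with a ratio of 0.745 (0.699 to 0.794). Intervals that exclude 1 speak of fragments counted in these 2 libraries and not of the allele, since variation between animals is not in them.

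Kit and Mitf are also used by mast cells, and mast cell products differed between the same libraries. Of 10 mast cell markers that passed the filter, 8 were lower in Koa than in WT ear dermis and 0 higher. Of all genes, 1.07% were lower and 1.71% higher. The list of 11 mast cell markers summed to 159 against 474 FPKM. Tpsab1, a tryptase, stood at 5.01 against 42 FPKM. Their part in the level of Kit and Mitf was not tested. Schwann cell and glial markers, another neural crest lineage, went the other way, with 3 of 13 higher, Gfap and Ngfr among them. Basal keratinocyte markers were higher in Koa ear dermis for 4 of 8, and growing hair genes for 9 of the 11 that passed.

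In ear epidermis only 4 of the 10 genes passed the filter between Koa and WT, and 0 were higher and 0 lower, against 2.15% of all 12065 genes higher and 0.854% lower. Tyr stood at 2.07 FPKM in Koa and 1.44 in WT, and Dct at 1.74 and 1.12. The 2 receptors lay below the filter. Kit rested on 90 fragments in Koa and 16 in WT ear epidermis, a ratio of 6.34 (3.75 to 11.7), and Ednrb on 41 and 14 fragments, a ratio of 3.42 (1.78 to 6.64). Growing hair genes were higher in Koa ear epidermis for 10 of the 14 that passed, and summed to 210 against 40 FPKM. The mast cell list summed to 0.453 FPKM in Koa and 0.614 in WT ear epidermis, with 4 and 3 of its 11 genes listed at 0. The part of growing hair in the 2 receptor levels was not tested.

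By the size rule 3 of the 10 genes were higher in dorsal than in WT ear dermis and 0 lower, where 11.7% of all 14235 genes were higher and 7.06% lower. The 3 were Mlana, at 59 against 13 FPKM, a ratio of 4.53 (4.01 to 5.13), Ednrb, at 32.4 against 7.97 FPKM, a ratio of 4.06 (3.8 to 4.34), and Dct, with a ratio of 2.87 (2.76 to 2.98). Pmel and Tyrp1 differed less, with ratios of 1.32 (1.25 to 1.4) and 1.23 (1.15 to 1.32). Oca2 had the opposite sign, at 0.413 against 1.03 FPKM, a ratio of 0.402 (0.271 to 0.584) and a difference of -0.52. The balance within the group differed too. Pmel stood at 0.642 of Dct in WT ear dermis, 0.424 in Koa ear dermis and 0.295 in dorsal dermis. Koa ear dermis set against dorsal dermis gave 2 lower of 9, Mlana and Ednrb, and 0 higher, against 9.63% of all genes lower and 5.94% higher.

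Beside these differences, 9 of 10 mast cell markers were lower in dorsal than in WT ear dermis, with a summed level of 79.7 FPKM. Of all genes, 11.7% were higher and 7.06% lower. Basal keratinocyte markers were higher for 7 of 8, suprabasal markers for 7 of 7, and stress response genes for 10 of 10. Growing hair genes were higher for 11 of the 12 that passed, with sums of 50.7 against 6.08 FPKM. Schwann cell and glial markers were higher for 2 of 12 and lower for 3. The part of these differences in the levels of the pigment genes was not tested. With the epidermal share subtracted, the number of the 10 genes counted as higher stayed at 3. Over all genes that subtraction moved the counts from 1670 higher and 1005 lower to 623 and 4864. It thus shifts the background itself, and the count of 3 does not test the part of keratinocyte RNA.

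In epidermis the dorsal library stood above WT ear for Tyr, with a ratio of 3.15 (2.77 to 3.58) between 4.52 and 1.44 FPKM. It was the only 1 of the 4 that passed the filter to be counted as higher, and 0 were lower, where 11.5% of all 12503 genes were higher and 5.47% lower. With a pseudocount of 5, or a filter at 5 FPKM, 0 were higher. Dct had levels of 2.35 and 1.12 FPKM and a ratio of 2.1 (1.61 to 2.76), and Pmel was nearly level at 1.38 and 1.37 FPKM. Mc1r, the melanocortin receptor of melanocytes, had 2.61 FPKM in dorsal epidermis, against 0.379 FPKM in WT ear epidermis. It was picked from a fixed list of 34 other melanosome genes. Of 25 on that list that passed, 2 were higher and 4 lower, with a median difference of -0.37. Dtnbp1, Myo5a and Vps33a were among the lower. Koa ear set against dorsal epidermis gave 0 higher and 0 lower of 4, against 3.51% of all genes higher and 8.77% lower. Both comparisons share the dorsal library. Stress response genes were higher in dorsal than in WT ear epidermis for 10 of 10, and growing hair genes for 6 of the 14 that passed, with 0 lower. The part of both in the level of Tyr was not tested.

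**Figure D3:**
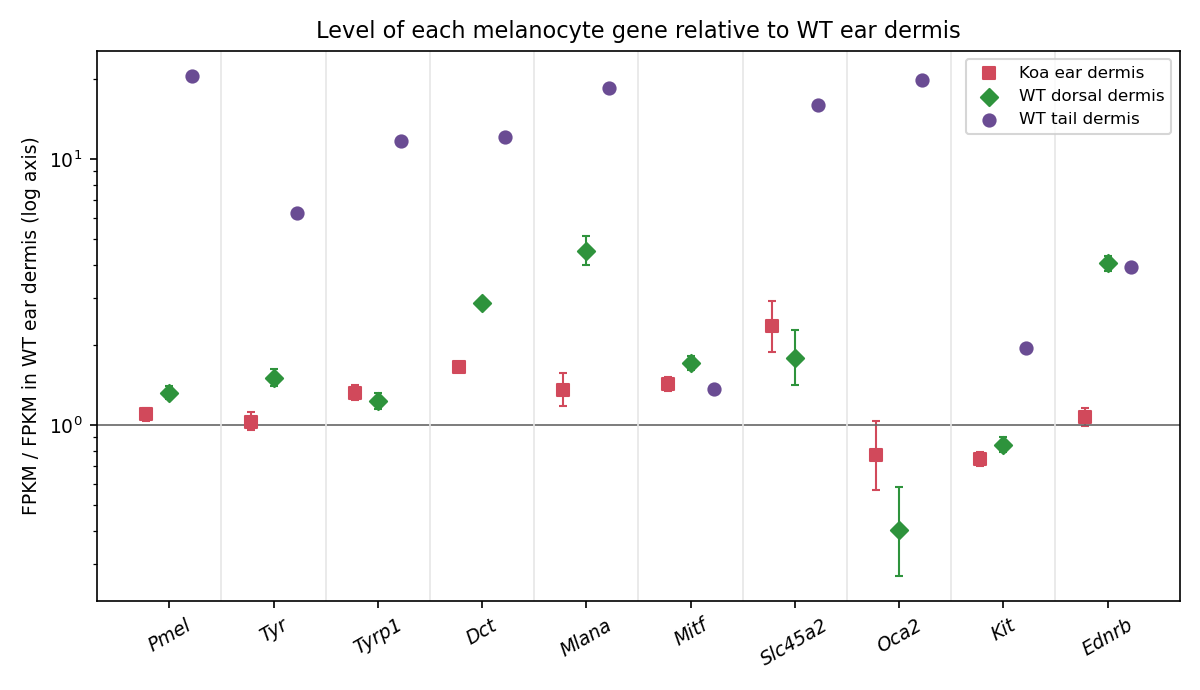
Level of each of the 10 genes in Koa ear, WT dorsal and WT tail dermis divided by its level in WT ear dermis (log axis, line at 1), 1 point per pair of libraries. Bars are exact 95% intervals of counting error only, which could not be made for the tail library. Dct, Mlana and Ednrb stand apart in dorsal dermis, and in tail dermis every gene lies above 1.

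Tail dermis held by far the highest levels of the melanosome genes. Pmel stood at 670 FPKM, Dct at 613, Mlana at 241 and Tyrp1 at 217 FPKM, and each was at least 4.09 times its level in the highest of the other 3 dermal libraries. Tyr stood at 36.1 FPKM, Oca2 at 20.5 and Slc45a2 at 18.7 FPKM. The 7 pigment genes summed to 1816 FPKM in tail dermis, against 123 in WT ear, 172 in Koa ear and 282 FPKM in dorsal dermis. Over WT ear dermis the ratios ran from 6.26 for Tyr, 11.7 for Tyrp1 and 12.1 for Dct to 18.5 for Mlana, 19.9 for Oca2 and 20.6 for Pmel. Pmel stood at 1.09 times Dct in tail dermis, the only dermal library where it was the higher of the 2.

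The regulator and the receptors did not show differences of this size. Mitf stood at 14.1 FPKM in tail dermis, inside the range of 10.3 to 17.6 FPKM of the other dermal libraries. It also stood at 6.7 to 8.45 FPKM in epidermis, where Tyrp1 was at most 0.226 FPKM. The part of melanocytes in the level of Mitf was not tested. Kit stood at 24.6 FPKM, 1.95 times WT ear dermis, and Ednrb at 31.3 FPKM, 3.93 times WT ear dermis but 0.968 times dorsal dermis. By the size rule 8 of the 10 genes were higher in tail than in WT ear dermis and 0 lower, against 6.34% of all 13668 genes higher and 27% lower. The exceptions were Mitf (0.42) and Kit (0.91). Against dorsal dermis 8 were again higher, where 7.07% of all genes were higher and 29% lower, and Mitf (-0.30) and Ednrb (-0.05) missed the rule. The 2 counts share the tail library and are not separate evidence. The median ratio of all genes lay 0.46 (log2) below WT ear dermis and 0.37 below dorsal dermis. The counts over all genes, 866 higher and 3686 lower against WT ear dermis, become 1456 and 1982 once the libraries are rescaled to a median ratio of 1. Rescaled, Kit (1.33) passes the rule against WT ear dermis, and Mitf (0.05) and Ednrb (0.31) change sign against dorsal dermis.

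The tail library stands apart in other ways. Its column was rounded to 2 decimals. It lists 222 symbols at 0 that reach 10 FPKM in each of the 6 other libraries, and 0 of these are among the 10 genes. It held Xist, the RNA of the inactive X chromosome, at 41.5 FPKM and the Y-linked Ddx3y at 0, while the other 6 held Xist at 0.0381 to 0.122 FPKM and Ddx3y at 33.1 to 38.3 FPKM. Body site, animal and the making of the column cannot be told apart from the level of the pigment genes. Between tail and WT ear dermis 6.34% of all genes were higher and 27% lower, which is the background of the list counts that follow. Endothelial markers were higher in tail than in WT ear dermis for 7 of 11, with sums of 152 against 65 FPKM. Schwann cell and glial markers were higher for 3 of 12, Sox10 among them, and lower for 1, Cdh19, with sums of 386 against 261 FPKM. Stress response genes were higher for 10 of 10, with sums of 9248 against 489 FPKM. Mast cell markers were split, with 2 of 10 higher and 5 lower, and summed to 468 and 474 FPKM. Hdc, which makes histamine, stood at 25.9 FPKM in tail and 5.08 in WT ear dermis, and Cpa3 at 25.6 and 87.7 FPKM. Their part in the pigment gene levels was not tested.

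Other genes of the pathway, from a fixed list of 34 melanosome genes of which 30 were in the table, differed in both directions in tail dermis. Of 29 that passed the filter, 9 were higher than in WT ear dermis and 4 lower, against 6.34% of all genes higher and 27% lower. The median difference was -0.30 over the list and -0.51 over all genes. The 9 that were higher include Trpm1, a melanocyte channel, at 70.3 against 2.88 FPKM, Slc24a5, a melanosomal exchanger, at 37.7 against 4.28 FPKM, and Slc24a4, its relative, at 13 against 1.05 FPKM. They also include Gpr143, a melanosome receptor, and Mc1r, with ratios of 21.6 and 6.97, and the transport genes Mlph, Rab27a and Rab38. The 4 that were lower, Hps3, Hps6, Vps33a and Bloc1s2, serve the sorting of cargo to lysosome-related organelles in many cell types. Bloc1s2 is 1 of the symbols listed at 0 in the tail column. Between Koa and WT ear dermis 0 of 28 were past the rule, against 1.71% of all genes higher and 1.07% lower. Between dorsal and WT ear dermis Rab38, at 15.4 against 3.74 FPKM, and Rab27a were higher and Hps3 lower, of 28. Of all genes, 11.7% were higher and 7.06% lower, so the list did not stand above the background. Rab38 stood at 42.1 to 45.6 FPKM in epidermis, and the part of keratinocyte RNA in its dorsal dermal level was not tested. A second list of 12 melanocyte markers, had 6 of 10 higher and 1 lower in tail than in WT ear dermis. Of these 6, Mlana is 1 of the 10 genes, Trpm1 is on the melanosome list and Sox10 on the list of transcription factors.

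**Figure D4:**
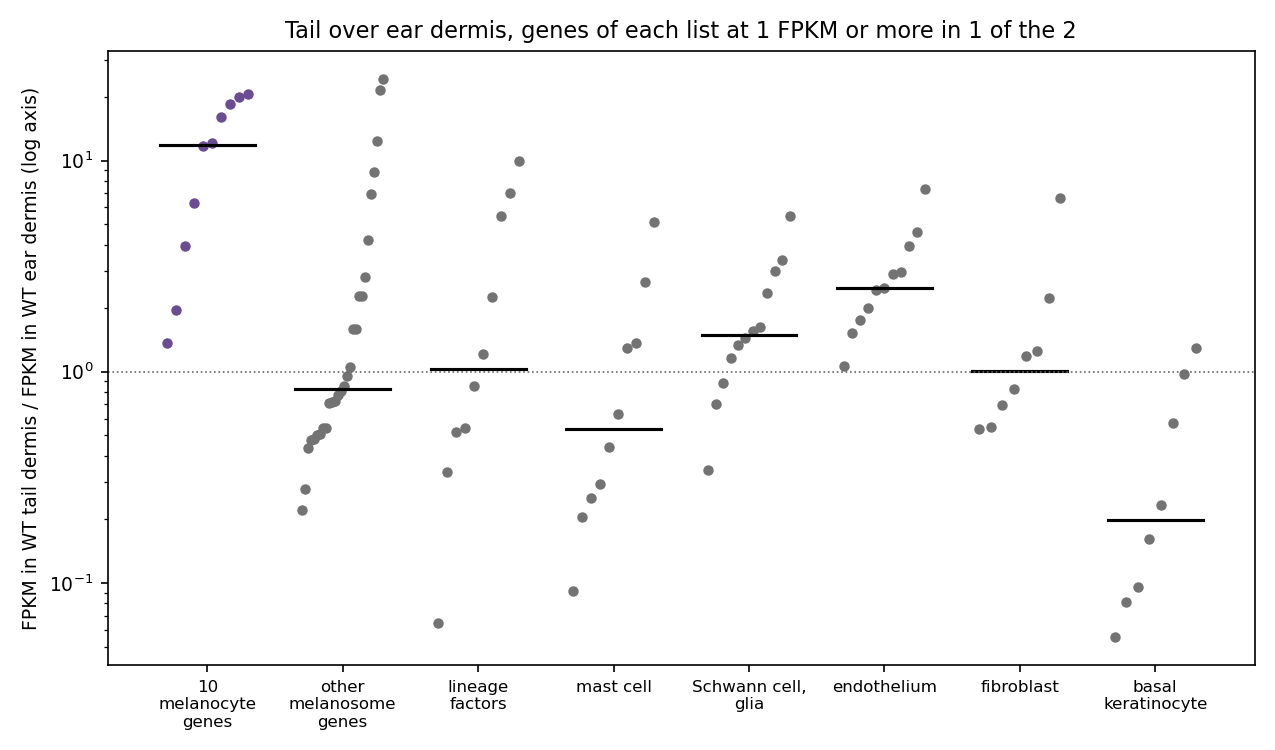
Ratio of tail to WT ear dermis FPKM (log axis) for each gene that reached 1 FPKM in 1 of the 2 libraries, by gene list, 1 point per gene, with the list's median as a bar. The dotted line marks a ratio of 1, and Bloc1s2, listed at 0 in tail, is not drawn. The 10 genes lie between 1.37 and 20.6, and the endothelial list also lies above 1, while the 6 other lists drawn hold genes on both sides of it.

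Transcription factors upstream of or beside MITF also differed in both directions. Of 10 listed factors that passed, 4 were higher and 1 lower in tail than in WT ear dermis. Of all genes, 6.34% were higher and 27% lower. The 4 were Sox10, which activates Mitf, at 26.8 against 4.89 FPKM, Pax3 at 15.2 against 2.17 FPKM, Foxd3 at 7.72 against 0.772 FPKM, and Ets1. Sox9, also used in hair follicles, was lower, at 1.46 against 22.7 FPKM. Sox10 is shared with Schwann cells and Foxd3 with their precursors. Between dorsal and WT ear dermis Pax3, Irf4 and Lef1 were higher and 0 of 10 lower, against 11.7% of all genes higher and 7.06% lower. Between Koa and WT ear dermis 0 of 10 were past the rule, against 1.71% of all genes higher and 1.07% lower. Lef1 came closest there, at 5.95 against 2.62 FPKM.

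Ligands of the 2 receptors differed by body site, in both directions. Kitl, the ligand of KIT, stood at 20 FPKM in WT ear, 19.9 in Koa ear, 13.2 in tail and 6.56 in dorsal dermis. Edn3, an endothelin that acts on melanocyte precursors through EDNRB, stood at 14.6, 11.8, 12.4 and 1.6 FPKM in the same order. Dorsal dermis was thus lowest for both ligands. Ednrb stood at 32.4 FPKM there and at a similar 31.3 FPKM in tail dermis. Kit stood at 10.6 FPKM in dorsal dermis, between its levels in Koa ear (9.4 FPKM) and WT ear dermis (12.6 FPKM). Unlike Kitl and Edn3, Edn2 was highest in dorsal dermis among dermal libraries, at 20.5 against at most 0.297 FPKM in the other 3. It stood at 85.9 FPKM in dorsal epidermis. Basal keratinocyte markers in dorsal dermis had a median of 40.7% of their epidermal level. The part of keratinocyte RNA in the dorsal dermal level of Edn2 was not tested. Edn1 had 5.97 FPKM in dorsal dermis, against 0.719 FPKM in WT ear dermis. These genes are on a wider list of signals to melanocytes, which also holds ligands of other receptors, such as Hgf, Fgf2 and Bmp4. Of 8 on that list that passed between dorsal and WT ear dermis, 3 were higher and 4 lower. Of all genes, 11.7% were higher and 7.06% lower. Between Koa and WT ear dermis only Bmp4 of 5 was past the rule, at 47.7 against 21.5 FPKM. There 1.71% of all genes were higher and 1.07% lower.

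Genes with a pattern like that of the pigment genes were ranked by Pearson's r to the mean log2(FPKM + 1) of the 7 pigment genes. Over the 6 ear and dorsal libraries, which fall into 3 dermal and 3 epidermal ones, 219 of 6495 genes had an r of at least 0.99. Among the 8 highest were Htra3, Cd209b, Myh11, Dpep1, Xlr, Scara5 and Cd84, and 0 of the 8 are on the melanocyte lists. Myh11 is a smooth muscle myosin and Scara5 is expressed by fibroblasts, and those named were all higher in dermis than in epidermis. With the tail library added, which was decided after seeing the data, 10 of 9024 genes reached 0.99. The 8 highest were then Gm13889, Tnfaip2, Spsb1, Ptgds, Mlph, Hspb2, Tinagl1 and Sox10, of which Ptgds, Mlph and Sox10 are on the lists. Ptgds stood at 118 FPKM in tail and between 12.5 and 14.5 FPKM in the other dermal libraries. Among the 10 genes themselves, the 45 pairs had r between 0.662 and 0.998 over the 6 libraries, with a median of 0.932. Of the genes most like a single one of the 10 over the 6 libraries, the first was Cd53 for Pmel, Cldn10 for Tyr, Dock10 for Tyrp1, Rinl for Dct and Tbc1d10c for Mlana. It was Avil for Mitf, Lrrk2 for Slc45a2, Myo7a for Oca2, Prkg2 for Kit and Slc11a1 for Ednrb, and these 10 had r between 0.991 and 1.000. These values share their libraries and the split between layers, and are a description only.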

How the data were processed

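Total RNA of flow-sorted cells was sequenced in 7 libraries. The deposited values are FPKM. Per the submitters' processing notes, the authors used TopHat2 2.0.13 and Cufflinks 2.2.1, and the builds GRCm38 and mm9 are named. The role of each build and the annotation are not given in the sources used here. Columns were matched to samples by title. Depth was recovered from the steps of low FPKM values, 31.6 to 40.4 mega fragments in 6 libraries, with 76.3% to 80.5% of low values within 0.1 of a whole fragment. The procedure was tested on simulated data. Fragments behind an FPKM value use the longest protein-coding GENCODE M21 transcript and are approximate for genes with several transcripts. Ratios carry exact 95% counting intervals. Very abundant genes can be listed at 0 as failed estimates, so a listed 0 is not read as absence. Python 3.11.15, pandas 2.3.3 and scipy 1.17.1 were used.

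In 11 comparisons of 2 libraries, genes at 1 FPKM or more in 1 of them were kept, with a pseudocount of 1 and a size rule of 1 (log2). All 10 genes are named. Of each other list, counts and up to 4 expressed genes with the widest differences or highest levels are given, and the 8 genes most like the pigment genes, among those at 5 FPKM or more with a range of at least 1. Genes named beyond that rule (Mc1r, Gpr143, Rab27a, Mlph, Edn1 and Kitl among them) were chosen after their values were seen. The 10 genes, the 13 other lists and the comparisons were chosen with earlier results of these data known. Some genes that the naming rule gives are not reported here.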

Additional observations from a re-analysis of the deposited data

How the results depend on the processing

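Alternatives were pseudocounts of 0.1 and 5, no filter, a filter at 5 FPKM, rescaling to equal medians and subtraction of the epidermal share. Of 126 counts of the 10 genes under them, 120 stayed within 1.5 times the reported count. With a pseudocount of 0.1 the count of higher genes goes from 0 to 1 between Koa and WT ear dermis (Slc45a2) and from 1 to 2 between dorsal and WT ear epidermis (Tyr and Dct). With the same pseudocount the count of lower genes goes from 0 to 1 between dorsal and WT ear dermis (Oca2) and between Koa ear and dorsal epidermis (Tyr). The count of higher genes between dorsal and WT ear epidermis goes from 1 to 0 with a pseudocount of 5 or a filter at 5 FPKM. Of 504 single differences, 344 moved by less than the margin of counting error, 160 moved by more and 0 changed sign among those past the size rule. Rescaling moves the split of all genes from 2239 higher and 1152 lower to 2507 and 597 between dorsal dermis and epidermis, and from 994 and 4083 to 1547 and 2875 between tail and dorsal dermis, where subtraction of the epidermal share gives 3509 and 1659. The tail library allows no counting interval. No paired analysis was possible because each group has 1 library. For the same reason no replicate could be left out.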
